A study of Rattus norvegicus with 8 samples.

Results

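The genes described here build and guard the machinery that segregates chromosomes in mitosis, and 42 of them had been listed as kinetochore, spindle checkpoint, condensin and spindle genes. The cells were primary ventricular cardiomyocytes from newborn rats, that is heart muscle cells taken into culture, and their RNA was measured on 8 arrays. A gene was represented by its brightest probe set among those that the array's annotation pairs with that gene alone, which found 30 of the 42 and 14506 genes in all. Each of the 30 had 1 such probe set. The other 12 were Cenph, Cenpo, Cenpp, Spc24, Knl1, Nsl1, Zwilch, Sgo1, Espl1, Ncapd2, Ncapg and Ncaph, and they were not analysed here.

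Both groups held 4 arrays of cells that had received 0.4 µM of a synthetic microRNA precursor by lipid transfection and were harvested after 48 h. One group had received the miR-222 precursor and the other a control precursor of scrambled sequence, so every array came from transfected cells and none from untreated ones. The labels do not say that the arrays of a group came from separate cultures, so a p-value here rests on the spread among these arrays alone, which may be technical. All 18 cardiomyocyte markers checked were measured, at control means from 10.56 log2 units for the transcription factor gene Tbx5 to 13.69 for cardiac actin, Actc1. The labels give no share of other cell types in the dishes.

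A kinetochore is the protein structure that joins a chromosome to the spindle. Its inner part sits on chromatin marked by the histone variant CENP-A, and its outer part binds microtubules through the NDC80 complex. Unattached kinetochores start the spindle checkpoint, which holds back chromosome separation, while condensin compacts the chromosomes. Most of these genes are transcribed mainly in dividing cells. Cardiomyocytes of newborn rats leave the cell cycle soon after birth, whereas other heart cells go on dividing in culture.

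The transfected microRNA is shown first, because the groups differ in it. Its mature form is known as miR-222-3p, whose seed (bases 2 to 8, in capitals) pairs with target transcripts. The RefSeq sequence of the rat form lies at chrX:6022682-6022702, plus strand, of build GRCr8.
miR-222-3p: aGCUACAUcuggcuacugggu

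With the miR-222 precursor, 1 of the 30 genes rose and 2 fell and 27 did not pass the test. Cenpm, an inner kinetochore gene, was 1.35-fold higher, the outer kinetochore gene Dsn1 was 1.53-fold lower and the checkpoint gene Bub3 1.42-fold lower. The test was limma over all probe sets with Benjamini-Hochberg adjustment and a threshold of 0.05. The 3 calls are 10.0% of the set, beside 24.7% of all genes (11.7% higher and 13.0% lower). The median log2 fold change of the set was 0.0013, beside 0.013 over all genes, and 15 of the 30 differences were above 0. The median size of the difference, whatever its sign, was 0.14 in the set and 0.12 over all genes. In bulk RNA such as this, fewer cells of a type and less RNA per cell cannot be told apart.

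The low count of calls went with a large spread between arrays of the same group, in both groups. The median standard error (SE) of the difference was 0.14 for these genes and 0.07 over all genes. The median SD was 0.17 between control arrays and 0.26 between miR-222 arrays, beside 0.08 and 0.09 over all genes. Without miR-222 replicate 3, the median SD of the miR-222 arrays fell to 0.08 in the set and was 0.08 over all genes. The difference of each of the 30 genes is therefore given with and without this array. Without it 5 of the 30 genes were higher and 3 lower, which is 26.7% beside 21.9% of all genes (10.3% higher and 11.6% lower), the median was 0.10 and 22 differences were above 0. The array was singled out after its values were seen, and it was below the mean of the other miR-222 arrays for all 30 genes. Leaving it out therefore had to raise every difference. Calls gained without it follow in part from that choice and are no independent evidence of a rise.

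**Figure D1:**
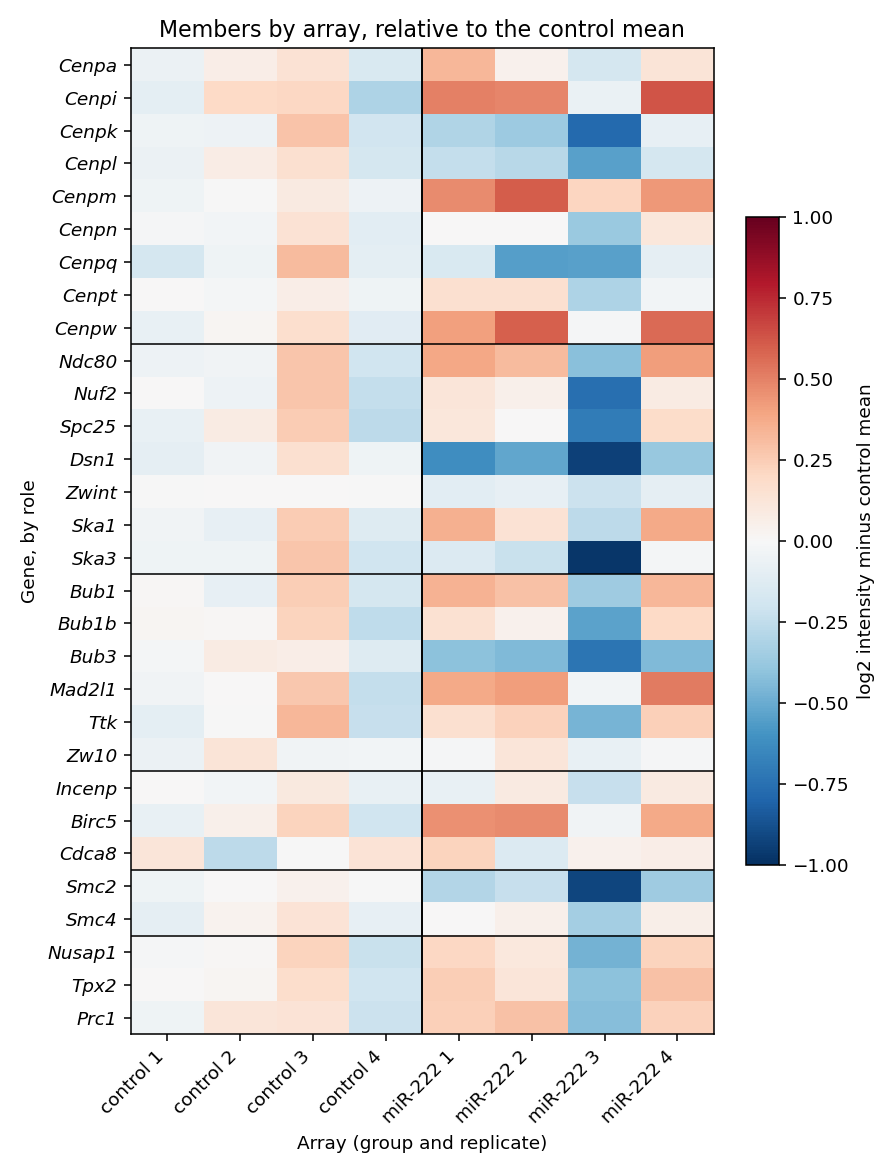
Log2 intensity of the 30 genes on each of the 8 arrays minus the gene's control mean, in colour from blue (lower) to red (higher), with genes in rows ordered by role and a vertical line between control and miR-222 arrays. The column of miR-222 replicate 3 is the lowest of its group in 28 of 30 rows, and the column of control replicate 3 the highest of its group in 27.

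The map of levels by array shows the same order of arrays in most rows. Within its group, miR-222 replicate 3 had the lowest level for 28 of the 30 genes (93.3%, beside 31.1% of all genes), the exceptions being Cdca8 and Cenpq. It was below all 7 other arrays for 23 genes (76.7%, beside 20.0% of all genes). Its difference from the mean of the other 3 miR-222 arrays ran from -0.84 for Ska3 to -0.0057 for Cdca8, with a median of -0.50, beside -0.012 over all genes. It lay more than 0.50 below them for 15 of the 30 genes, beside 1.35% of all genes. Among control arrays, replicate 3 was the highest for 27 genes (90.0%, beside 24.5% of all genes) and replicate 4 the lowest for 24 (80.0%, beside 26.7%). The median of control replicate 4 minus control replicate 3 was -0.37 in the set and 0.0091 over all genes.

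The genes that were lowest in miR-222 replicate 3 were also those that separated control replicates 3 and 4. Across the 30 genes, miR-222 replicate 3 minus the mean of the others and control replicate 4 minus control replicate 3 correlated at r = 0.779, beside r = 0.0517 across all 14506 genes. This is a correlation across genes of the same 8 arrays, which are not independent replicates, and the pair of control arrays was chosen after their values were seen. Nuf2 and Ska3, which act where microtubules attach, lay at one end, with -0.84 in miR-222 replicate 3 against its group and -0.52 and -0.48 in control replicate 4 against replicate 3. At the other end Zw10, Zwint and Cdca8 differed by -0.11, -0.12 and -0.0057 in miR-222 replicate 3, and by 0.012, -0.014 and 0.14 in control replicate 4 against replicate 3. Smc2 lay apart from both, low in miR-222 replicate 3 by -0.62 but only 0.05 apart between the control arrays.

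**Figure D2:**
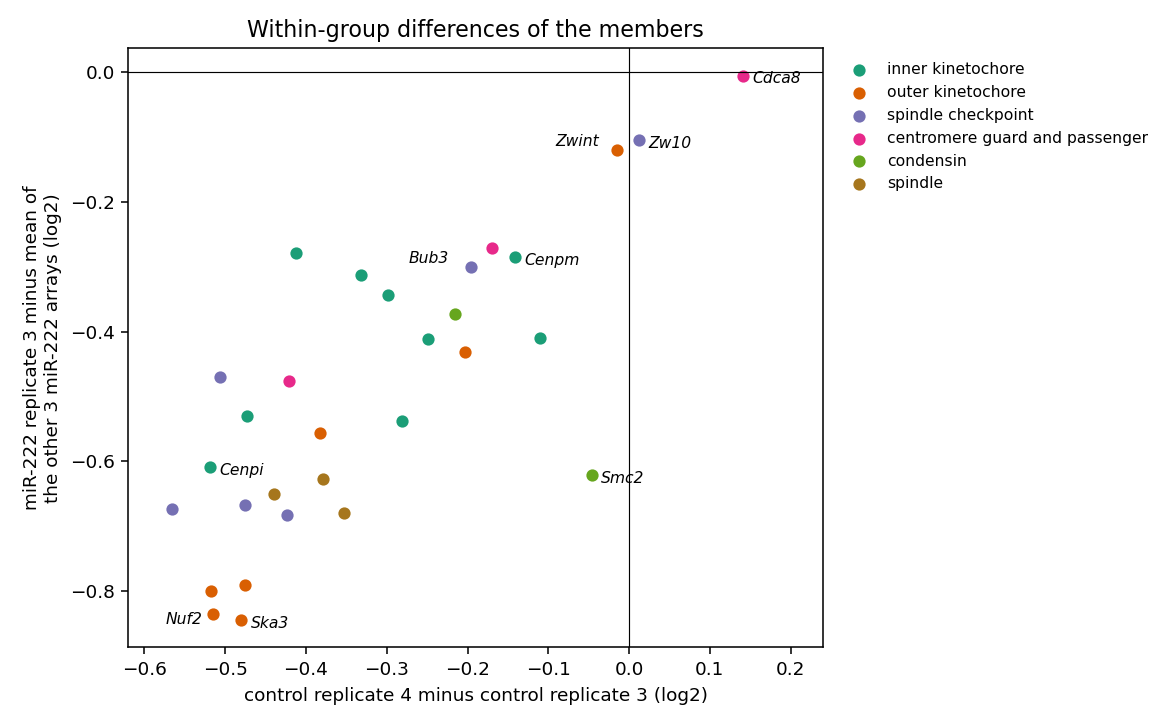
Each point is 1 of the 30 genes, coloured by role, with control replicate 4 minus control replicate 3 on the x axis and miR-222 replicate 3 minus the mean of the other 3 miR-222 arrays on the y axis, both in log2 units. The genes run from Nuf2 and Ska3 at the lower left to Cdca8 at the upper right, at r = 0.779 across the 30 genes, with Smc2 off this line.

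The inner kinetochore had 9 measured genes, of which 1 was higher, 0 were lower and 8 did not pass. Cenpm (probe set 10905696) encodes a subunit of the centromere-associated network, the constitutive inner complex. Its log2 levels were 9.59, 9.63, 9.72 and 9.58 in control replicates 1 to 4 and 10.11, 10.24, 9.85 and 10.07 in the miR-222 replicates. The groups did not overlap, and even miR-222 replicate 3, the lowest of its group, was above the highest control array. The difference was 0.43 (SE 0.08, limma adjusted p = 0.00782), and 0.50 without that array (SE 0.06), and it passed without any single array (adjusted p 0.00202 to 0.0278).

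Cenpw (probe set 10702408) encodes a histone-fold partner of CENP-T. It measured 9.42, 9.52, 9.66 and 9.38 in control and 9.90, 10.10, 9.48 and 10.06 with miR-222, so that only miR-222 replicate 3 lay within the control range. With all arrays the difference was 0.39 (SE 0.14, limma adjusted p = 0.0894), and without that array 0.53 (SE 0.08, adjusted p = 0.00629). Cenpi (probe set 10934891), a further subunit of the inner complex, showed the same order, with 7.87, 8.17, 8.18 and 7.66 in control and 8.48, 8.46, 7.90 and 8.60 with miR-222. Its difference was 0.39 (SE 0.18, limma adjusted p = 0.180) and, without miR-222 replicate 3, 0.54 (SE 0.14, adjusted p = 0.0382).

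Cenpt, which encodes the partner of CENP-W, did not show that order, at 8.83, 8.81, 8.90 and 8.79 in control and 8.99, 9.00, 8.52 and 8.80 with miR-222. Its difference was -0.0049 (SE 0.10), and 0.10 without miR-222 replicate 3 (limma adjusted p = 0.368). Cenpa, the gene of the centromeric histone itself, measured 8.63 to 8.93 in control and 8.61 to 9.11 with miR-222, a difference of 0.08 (SE 0.11, limma adjusted p = 0.687), and of 0.17 without miR-222 replicate 3 (SE 0.10, adjusted p = 0.323). The groups overlapped for both genes, with and without the low array.

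The remaining inner kinetochore genes had lower means with miR-222, and none passed the test. Cenpl came nearest, with 7.97, 8.10, 8.18 and 7.85 in control and 7.78, 7.75, 7.48 and 7.85 with miR-222. Its groups met at their edges without overlap, and the difference was -0.31 (SE 0.10, limma adjusted p = 0.0676). It was -0.23 without miR-222 replicate 3 (SE 0.08, adjusted p = 0.121). Of the 8 fits that left out 1 array, Cenpl passed in 1, without control replicate 4 (adjusted p = 0.0491), and its adjusted p reached 0.154 in the others. Cenpk differed by -0.38 (SE 0.16, adjusted p = 0.140), and by -0.25 without miR-222 replicate 3, where it did not pass either (SE 0.12). Cenpq differed by -0.33 (SE 0.15, adjusted p = 0.162), and by -0.26 without that array (SE 0.15, adjusted p = 0.328). The groups overlapped for both genes. Cenpn, whose product reads CENP-A nucleosomes, differed by -0.06 (SE 0.11), and by 0.04 without miR-222 replicate 3.

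Of 7 measured outer kinetochore genes 1 was lower, 0 were higher and 6 did not pass. Dsn1 (probe set 10851251) encodes a subunit of the MIS12 complex, which links the inner kinetochore to the microtubule-binding part. It measured 8.04, 8.08, 8.29 and 8.08 in control and 7.50, 7.61, 7.19 and 7.75 with miR-222. All 4 miR-222 arrays were below all 4 control arrays, the lowest being replicate 3. The difference was -0.61 (SE 0.12, limma adjusted p = 0.00861), and -0.50 without replicate 3 (adjusted p = 0.00737). It passed without any single array (adjusted p up to 0.0258).

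The 3 measured genes of the NDC80 complex, which grips the microtubule, spread widely between miR-222 arrays. Ndc80 (probe set 10930488) measured 9.01, 9.02, 9.33 and 8.86 in control and 9.44, 9.37, 8.64 and 9.48 with miR-222. Nuf2 (probe set 10769657) measured 8.86, 8.80, 9.13 and 8.62 in control and 8.97, 8.90, 8.10 and 8.93 with miR-222. Spc25 (probe set 10845969) measured 8.93, 9.09, 9.27 and 8.75 in control and 9.12, 9.02, 8.31 and 9.19 with miR-222. In all 3, miR-222 replicate 3 was below every other array, and the other miR-222 arrays overlapped with control or lay just above it. Differences were 0.18, -0.13 and -0.10 (SE 0.20, 0.21 and 0.20), and 0.38, 0.08 and 0.10 without that array. None passed either way, with limma adjusted p of 0.0638 for Ndc80 without the array as the lowest.

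Ska1 and Ska3 encode subunits of the SKA complex, which helps NDC80 to hold on to shrinking microtubule ends. Ska1 differed by 0.15 (SE 0.15) and Ska3 by -0.34 (SE 0.21), and by 0.29 and -0.12 without miR-222 replicate 3, so that the pair lay on opposite sides of 0 in both fits. Whether they differed from each other was not tested. Zwint, whose product binds KNL1 at the outer kinetochore, was among the most even genes, at 12.45 to 12.46 in control and 12.24 to 12.37 with miR-222. The groups did not overlap, but the difference of -0.12 (SE 0.04) did not pass (limma adjusted p = 0.0860), nor did that of -0.09 without miR-222 replicate 3 (adjusted p = 0.131).

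The checkpoint genes numbered 6, of which 1 was lower, 0 were higher and 5 did not pass. Bub3 (probe set 10711686) encodes the adaptor that brings BUB1 and BUBR1 to the kinetochore. It measured 9.81, 9.91, 9.90 and 9.71 in control and 9.42, 9.39, 9.10 and 9.39 with miR-222. All miR-222 arrays were below all control arrays, with replicate 3 the lowest and the other 3 at 9.39 to 9.42. The difference was -0.51 (SE 0.08, limma adjusted p = 0.00428), and -0.43 without replicate 3 (adjusted p = 0.00361). It passed without any single array (adjusted p up to 0.0159).

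None of the other measured checkpoint genes passed the test with all arrays. Bub1 (probe set 10849737), the kinase gene, measured 9.66, 9.57, 9.90 and 9.47 in control and 9.99, 9.94, 9.29 and 9.99 with miR-222, a difference of 0.15 (SE 0.17, limma adjusted p = 0.608). Bub1b, which encodes BUBR1, differed by -0.04 (SE 0.17) and Ttk, the gene of the MPS1 kinase that starts checkpoint signalling, by 0.04 (SE 0.18). Without miR-222 replicate 3 the differences of Bub1, Bub1b and Ttk were 0.32, 0.13 and 0.21, and none passed (adjusted p 0.0725, 0.513 and 0.349). Zw10, part of a complex that loads dynein at kinetochores and that also acts in membrane traffic, was even across arrays at 8.71 to 8.91, with a difference of 0.0074 (SE 0.06), and 0.03 without miR-222 replicate 3.

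Mad2l1 (probe set 10856043) encodes MAD2, the inhibitor of the anaphase-promoting complex. It measured 9.12, 9.16, 9.42 and 8.92 in control and 9.53, 9.58, 9.13 and 9.68 with miR-222. Only miR-222 replicate 3 lay within the control range. The difference was 0.32 (SE 0.14, limma adjusted p = 0.167), and 0.44 without that array (SE 0.11, adjusted p = 0.0435).

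The set held 3 measured genes of the chromosomal passenger complex, which corrects wrong attachments, and none passed with all arrays. Birc5 (probe set 10940516), the survivin gene, measured 8.71, 8.84, 9.01 and 8.59 in control and 9.25, 9.26, 8.75 and 9.16 with miR-222. Again only miR-222 replicate 3 overlapped with control. The difference was 0.32 (SE 0.13, limma adjusted p = 0.151), and 0.44 without that array (SE 0.10, adjusted p = 0.0261). Incenp, the scaffold of the complex, differed by -0.03 (SE 0.08), and by 0.04 without that array. Cdca8, the gene of borealin, differed by 0.05 in both fits (SE 0.11 and 0.12) and was the one gene of the set for which control replicates 1 and 4 were the highest control arrays.

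Condensin was measured by its core pair, Smc2 and Smc4, since its other listed subunits had no probe set of their own here. Smc2 (probe set 10869050) measured 10.64, 10.69, 10.73 and 10.68 in control and 10.39, 10.45, 9.77 and 10.32 with miR-222. All miR-222 arrays were below all control arrays, replicate 3 by far the most. The difference was -0.45 (SE 0.14, limma adjusted p = 0.0614). Without replicate 3 it was smaller but more even, at -0.29 (SE 0.05, adjusted p = 0.00618), and of the 8 fits that left out 1 array it passed in 1 other, without miR-222 replicate 2 (adjusted p = 0.0486). Smc4 measured 10.80 to 11.03 in control and 10.55 to 10.95 with miR-222, a difference of -0.06 (SE 0.10), and 0.04 without replicate 3.

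None of the 3 spindle genes passed the test, and their groups overlapped with all arrays. Prc1 (probe set 10708214), which bundles antiparallel microtubules, measured 10.52, 10.68, 10.69 and 10.34 in control and 10.80, 10.85, 10.13 and 10.79 with miR-222. Nusap1 measured 9.83 to 10.27 in control and 9.58 to 10.27 with miR-222. Tpx2, an activator of Aurora A, measured 9.99 to 10.37 and 9.78 to 10.48. The differences were 0.08, 0.02 and 0.06, and 0.25, 0.18 and 0.22 without miR-222 replicate 3, and none passed in either fit (limma adjusted p from 0.120).

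**Figure D3:**
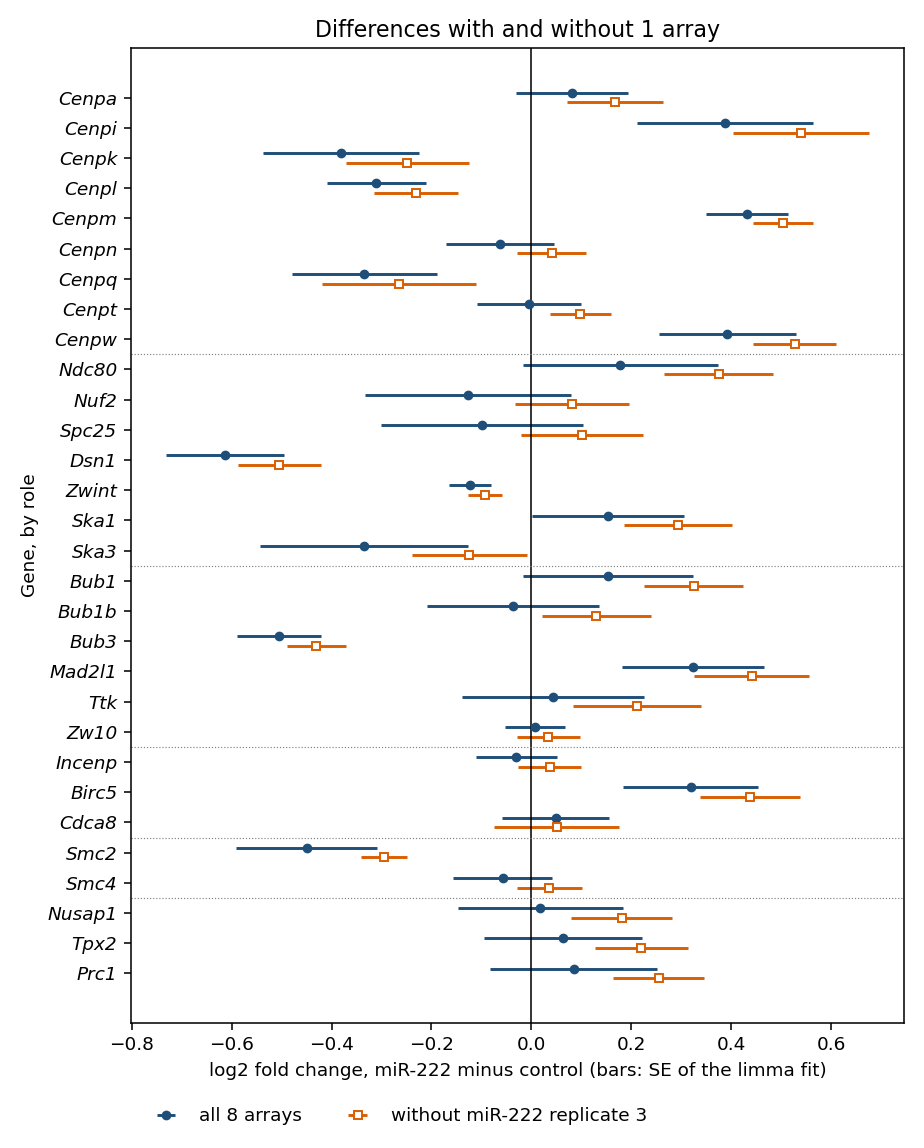
Log2 fold change of miR-222 minus control (x axis) for each gene (y axis, by role), with bars for the SE of the limma fit, from all 8 arrays (filled circles) and without miR-222 replicate 3 (open squares). Cenpm stays above 0 and Dsn1 and Bub3 below it in both fits, and the squares lie to the right of the circles in all 30 rows.

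Over the whole set, the 4 miR-222 arrays lay all above the control arrays for 1 gene and all below for 5, which were Dsn1, Bub3, Cenpl, Smc2 and Zwint. Over all genes 33.3% had groups without overlap, 16.4% higher and 17.0% lower. Without miR-222 replicate 3 the counts were 8 above and 5 below, beside 37.0% of all genes (18.5% higher and 18.4% lower). The 8 were Cenpi, Cenpm, Cenpw, Ndc80, Bub1, Mad2l1, Birc5 and Prc1, of which Ndc80, Bub1 and Prc1 did not pass the test. The genes with lower levels were the same 5 with and without that array, whereas 7 of the 8 with higher levels depended on leaving it out. This contrast follows from the choice of array. That array was the highest of its group for 0 of the 30 genes. Leaving it out could therefore add genes only to the higher list and could not change the lower one. The plot of differences shows this as a shift of all genes to the right by a size that varies from gene to gene.

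Promoters are shown because genes that move together over arrays can be read for shared elements. Genes of mitosis often carry CCAAT boxes, bound by NF-Y, and the cell cycle genes homology region (CHR), bound by the DREAM and MuvB-FOXM1 complexes. RefSeq promoters of build GRCr8, from 250 bases before to 50 after the start, were at hand for 25 of the 30 genes. They were searched on both strands for CCAAT, for the CHR as TTTGAA and for an E2F element as TTCCCGC. These matches are in capitals in the 5 promoters printed here, which belong to the gene that rose, 2 that followed the arrays and the 2 that fell. In order their positions are chr7:115639318-115639617, minus strand, chr9:118887480-118887779, minus strand, chr1:143659231-143659530, plus strand, chr1:195760282-195760581, plus strand, and chr3:166085841-166086140, minus strand.
Cenpm: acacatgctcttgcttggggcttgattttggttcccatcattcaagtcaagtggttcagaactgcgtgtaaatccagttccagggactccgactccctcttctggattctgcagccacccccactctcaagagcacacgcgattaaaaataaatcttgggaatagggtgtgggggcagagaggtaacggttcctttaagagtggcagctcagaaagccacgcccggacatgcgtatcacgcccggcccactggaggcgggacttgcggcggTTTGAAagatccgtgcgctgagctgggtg
Ndc80: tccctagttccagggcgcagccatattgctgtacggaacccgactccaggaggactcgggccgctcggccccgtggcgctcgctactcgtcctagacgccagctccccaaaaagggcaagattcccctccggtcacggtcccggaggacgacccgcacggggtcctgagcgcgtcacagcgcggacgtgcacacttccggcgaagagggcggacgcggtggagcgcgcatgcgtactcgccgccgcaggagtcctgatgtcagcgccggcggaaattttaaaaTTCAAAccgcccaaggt
Prc1: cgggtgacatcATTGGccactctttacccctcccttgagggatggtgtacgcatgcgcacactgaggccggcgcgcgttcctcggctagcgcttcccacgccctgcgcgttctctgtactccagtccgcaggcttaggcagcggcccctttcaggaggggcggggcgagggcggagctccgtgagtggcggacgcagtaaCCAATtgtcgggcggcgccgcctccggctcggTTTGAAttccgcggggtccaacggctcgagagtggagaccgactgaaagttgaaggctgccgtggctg
Bub3: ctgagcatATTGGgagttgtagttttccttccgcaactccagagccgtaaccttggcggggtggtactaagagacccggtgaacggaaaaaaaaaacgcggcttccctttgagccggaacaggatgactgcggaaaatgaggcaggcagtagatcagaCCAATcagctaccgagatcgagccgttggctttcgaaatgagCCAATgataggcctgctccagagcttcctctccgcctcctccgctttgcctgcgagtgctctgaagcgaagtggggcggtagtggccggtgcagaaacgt
Dsn1: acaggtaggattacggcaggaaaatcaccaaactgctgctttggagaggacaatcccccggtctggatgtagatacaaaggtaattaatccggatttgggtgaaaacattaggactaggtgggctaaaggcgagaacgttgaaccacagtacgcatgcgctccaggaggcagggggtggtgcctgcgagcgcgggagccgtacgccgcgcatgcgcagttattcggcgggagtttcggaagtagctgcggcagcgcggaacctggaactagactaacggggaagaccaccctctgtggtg

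The CHR letters were in 17 of the 25 promoters (68.0%), beside 18.3% of all 33469 promoters of the table and 15.1% of the 12536 promoters of genes measured here. CCAAT was in 14 (56.0%, beside 37.5% and 38.2%), both motifs were in 10 (40%, beside 7.41% and 6.25%), and the E2F letters were in 2 (8%, beside 4.21% and 6.34%). Of the 18 CHR matches, 14 began between 60 bases before and 40 after the start. In Prc1 the CHR began at -18 and a CCAAT box at -50, whereas in Ndc80 and Cenpm the CHR lay after the start, at 34 and 22. Bub3 had 3 CCAAT boxes and no CHR, and Dsn1 had no match. In Cdca8 a CCAAT box and the CHR overlapped. These matches describe letters in a window and show no binding.

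Genes with and without the CHR letters were both low in miR-222 replicate 3. Its median difference from the other miR-222 arrays was -0.61 over the 17 genes with a match and -0.42 over the 8 without. The median difference between miR-222 and control was 0.08 and -0.33, and 0.21 and -0.24 without that array. The 8 genes without the letters were Bub1, Bub3, Cenpk, Cenpl, Cenpn, Cenpq, Dsn1 and Ska3. With all arrays, Bub1 was the only one of them above 0, at 0.15. The comparison of the 2 groups of genes was made after their values were seen and was not tested.

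Neighbouring genes of the same machinery were taken from fixed lists. Of 14 other measured kinetochore and centromere genes, 2 were higher and 4 lower, the same 6 with and without miR-222 replicate 3. They make up 42.9% of the list, beside 24.7% of all genes. Mis12, which encodes a partner of DSN1 in the MIS12 complex, fell by 0.55 (SE 0.09, limma adjusted p = 0.00453), so both measured subunits of that complex were lower. Itgb3bp, the gene of CENP-R, rose by 0.48 (SE 0.07, adjusted p = 0.00287). The microtubule tip genes went apart, Clasp1 at -0.29 and Clasp2 at 0.21 (adjusted p = 0.00243 and 0.00703). Kntc1, which encodes the partner of ZW10, fell by 0.34 (adjusted p = 0.0487) and Cdt1, better known for replication licensing, by 0.39 (adjusted p = 0.0153). The call of Kntc1 did not hold in 6 of the 8 fits that left out 1 array, with 0.117 as the highest adjusted p.

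Beside 13.0% lower and 11.7% higher over all genes, 4 of 10 measured genes of condensin II and cohesin were lower and 0 higher. They were the cohesin genes Smc1a at -0.32 and Stag1 at -0.33, and Ncaph2 at -0.24 and Ncapd3 at -0.47, which encode subunits of condensin II (limma adjusted p 0.00425, 0.00939, 0.0128 and 0.0223). The counts were the same without miR-222 replicate 3, and the call of Ncapd3 did not hold in 4 of the 8 fits that left out 1 array, where its adjusted p reached 0.0596. miR-222 replicate 3 was the lowest of its group for 5 of these 10 genes, and their median SE was 0.05, beside 0.14 in the main set.

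Of 28 measured genes of mitotic kinases, cyclins and the anaphase-promoting complex (APC/C), 4 were higher and 3 lower. The largest difference was in Cdc16, an APC/C subunit, which fell by 0.89 (SE 0.05, limma adjusted p = 5.54e-05). Anapc4 of the same complex fell by 0.30 and Anapc1 rose by 0.18 (adjusted p = 0.0353). Anapc1 no longer passed when miR-222 replicate 3 was left out (adjusted p = 0.0534), leaving 3 higher and 3 lower, and its call did not hold in 7 of the 8 fits that left out 1 array. Pttg1, the securin gene, rose by 0.69, Cdc25b by 0.35 and Ccnb2 by 0.53, while Mybl2, a transcription factor gene of the MuvB complex, fell by 0.39. The call of Ccnb2 (limma adjusted p = 0.0184) did not hold without miR-222 replicate 1 or 4, where its adjusted p reached 0.0519. Of 21 genes of spindle assembly and cytokinesis, Ect2 rose by 0.49 and Kpna2, Tubb4b and Cep55 fell by 0.38, 0.37 and 0.77 (adjusted p 0.0134, 0.00265, 0.00498 and 0.0245). These are 19.0% of that list, beside 24.7% of all genes. The call of Cep55 was lost in 4 of the 8 fits that left out 1 array (adjusted p up to 0.0650). Without miR-222 replicate 3, Kif20a and Hmmr were also higher and Cit was also lower. That array was the lowest of its group for all 21 genes of this list and for 22 of the 28 mitotic genes.

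**Figure D4:**
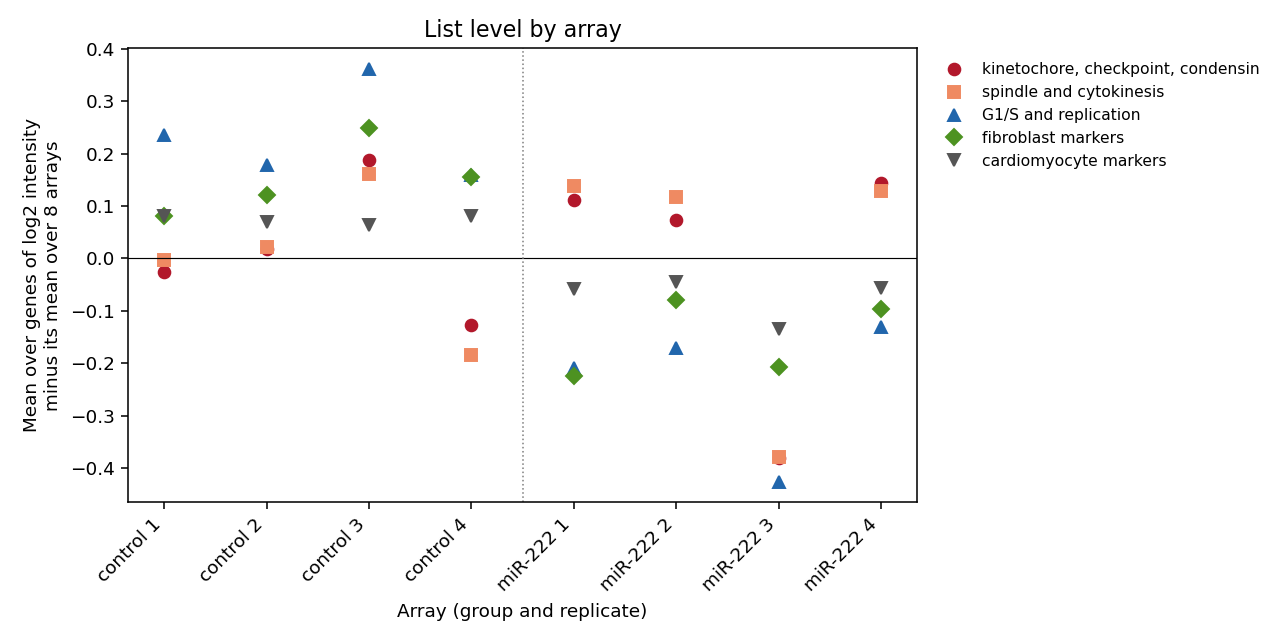
Level of 5 gene lists on each of the 8 arrays, as the mean over genes of log2 intensity minus the gene's mean over all arrays (y axis). The kinetochore, checkpoint and condensin genes and the spindle and cytokinesis genes overlap between groups and are lowest in miR-222 replicate 3, at -0.38 each, whereas G1/S genes and the 2 marker lists lie lower in all miR-222 arrays than in any control array.

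The level of the set by array is set beside other lists in the plot of list levels. The 30 genes lay at -0.03, 0.02, 0.19 and -0.13 in control replicates 1 to 4 and at 0.11, 0.07, -0.38 and 0.14 in the miR-222 replicates. Genes of G1/S and DNA replication separated the groups, at 0.16 to 0.36 in control and -0.43 to -0.13 with miR-222, with 22 of 32 lower, 1 higher and a median of -0.46. The calls are 71.9% of that list, beside 24.7% of all genes. With that list, leaving out miR-222 replicate 3 gave 21 lower and 1 higher and a median of -0.40. miR-222 replicate 3 was the lowest and control replicate 3 the highest there as well. Whether the 2 lists differed from each other was not tested.

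Markers of cell types that could carry these transcripts also differed between arrays. Of 14 fibroblast markers 7 were lower and 0 higher, beside 13.0% lower and 11.7% higher of all genes. The summed intensity of these markers was 26859.6 to 28409 in control and 21910 to 24248 with miR-222. The 7 lower ones included Fn1, Thy1, Lum and S100a4, at -0.62, -0.64, -0.89 and -0.24. The 7 that did not pass included the collagen genes Col1a1, Col1a2 and Col3a1, at -0.04, -0.15 and -0.14, and Tcf21 at 0.11. Of 8 smooth muscle markers 3 were lower and 0 higher, 37.5% of the list (30467 to 31073 and 24700.4 to 28021). These were Tagln, Pdgfrb and Myocd, at -0.91, -0.49 and -0.43. The 5 that did not pass included Des and Acta2, the brightest of the list, at -0.09 and -0.08, and Myh11 at 0.16. Of 18 cardiomyocyte markers 7 were lower and 1, Nkx2-5, higher, 44.4% of the list (149873 to 152289 and 131188 to 138792). Among the lower ones, Myh7, Csrp3 and Ttn differed by -0.61, -0.58 and -0.36. The 10 that did not pass included Myh6 at -0.014, Tnni3 at -0.020 and Actc1 at -0.045. The sums of all 3 lists were lowest in miR-222 replicate 3. Of 8 endothelial markers 2 were lower, Kdr at -1.51 and Eng at -0.27, and 6 did not pass. The share of calls was close to the 24.7% of all genes called in either direction, while 13.0% of all genes were lower. The endothelial sum was 2757 to 2936 in control and 2064 to 2189 with miR-222. Without Kdr, which was set aside after its values were seen, it was 1929 to 2093 and 1773 to 1918. Leukocyte markers summed to 1141 to 1229 and 1178 to 1311, with 1 of 10 (10.0%), C1qa, higher. The counts of lower markers without miR-222 replicate 3 were 8 fibroblast, 3 smooth muscle, 6 cardiomyocyte, 2 endothelial and 0 leukocyte markers, and none was higher. The table held no value of 0, so no marker was listed at 0. miR-222 replicate 3 was lowest of its group for 6 of the 14 fibroblast, 6 of the 8 smooth muscle, 11 of the 18 cardiomyocyte, 2 of the 8 endothelial and 2 of the 10 leukocyte markers, beside 28 of the 30 genes of the set. The part of cell composition, and of anything else particular to this array, in the results was not tested.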

How the data were processed

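The deposited table held intensity values on a linear scale for 29170 probe sets and 8 arrays, with array medians from 202 to 219. The authors' background correction, summary and normalization are not given in the sources used here. Probe identifiers paired with the platform annotation of GEO: 15310 probe sets with 1 gene, 323 with several and 13537 with none. The series text names another rat array than the one this annotation describes, and 0 of the 29170 identifiers have the form used on the array it names, so every gene name here rests on the annotation. The annotation's symbols were checked against current RefSeq symbols, and 0 changed. Correlations between arrays were 0.989 to 0.993 within groups. Values were taken as log2 and fitted with limma 3.58.1 in R 4.3.3 over all probe sets, with 4 control and 4 miR-222 arrays and no covariate. Replicates are numbered in listing order. The fit was tested on simulated data. Background shares are over 14506 genes. Figures were drawn with matplotlib 3.10.9. Dixon's limit for 4 arrays was 0.829.

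The genes, lists and alternatives were chosen with earlier results of these data known. Genes were named by rule: every measured member, and of each other list up to 4 with the smallest p. Others complete counts of 5 or fewer or were singled out after their values were seen. Seed sites in 3' UTRs were not analysed here.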

Additional observations from a re-analysis of the deposited data

Results flagged for a closer look

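One array lay far from the other 3 of its group for 8 of the 30 genes, beyond the 95% limit of Dixon's test, and in each case it was miR-222 replicate 3 and it was low. The log2 level there was 8.64 for Ndc80 (9.37 to 9.48 in the other miR-222 arrays), 8.10 for Nuf2 (8.90 to 8.97), 9.29 for Bub1 (9.94 to 9.99), 9.10 for Bub3 (9.39 to 9.42), 7.82 for Ttk (8.45 to 8.52), 10.55 for Smc4 (10.89 to 10.95), 9.58 for Nusap1 (10.15 to 10.27) and 10.13 for Prc1 (10.79 to 10.85). Chance flags about 1 in 20 groups of values. The 8 flags are on the same array in genes that moved together, so they are not 8 independent draws. Of all genes, 6.25% passed the limit in the miR-222 group and 5.28% in the control group, where 0 of the 30 genes did.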

How the results depend on the processing

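The rises and falls of Cenpm, Dsn1 and Bub3 kept their direction and passed the threshold under all 6 alternatives and without any single array. The count of higher genes, 1 with all arrays, was 2 with array weights (Cenpw added) and 1 to 5 when 1 array was left out, 5 without miR-222 replicate 3. The count of lower genes, 2 with all arrays, was 4 with dim probe sets left out (Smc2 and Cenpl added). It was 5 with trend and robust variances (also Zwint) and 2 to 3 when 1 array was left out. Smc2 alone was added with array medians equalised and with array weights. The median ranged from -0.046 to 0.099 over all alternatives. Signs changed only for differences that did not pass: to 0.047 for Bub1b, 0.028 for Cenpt and 0.017 for Spc25 with array weights, and to -0.0079 for Nusap1 and -0.018 for Zw10 with array medians equalised. When 1 array was left out, differences ran from -0.12 to 0.13 for Bub1b, -0.038 to 0.11 for Cdca8, -0.0011 to 0.17 for Cenpa, -0.12 to 0.040 for Cenpn, -0.061 to 0.098 for Cenpt, -0.071 to 0.037 for Incenp, -0.21 to 0.082 for Nuf2, -0.055 to 0.18 for Nusap1, -0.095 to 0.036 for Smc4, -0.19 to 0.10 for Spc25, -0.013 to 0.22 for Tpx2, -0.035 to 0.21 for Ttk and -0.030 to 0.049 for Zw10. The cause of these changes was not tested. Among the other lists, the count of higher spindle and cytokinesis genes, 1 with all arrays, was 3 without miR-222 replicate 3 and with array weights and 2 with trend and robust variances or without control replicate 3, and that of higher mitotic genes, 4, was 2 without miR-222 replicate 1 or 4. Lower cardiomyocyte markers numbered 7, and 4 to 11 over the alternatives. The 1 higher cardiomyocyte marker, Nkx2-5, was lost with array medians equalised and in 7 of the 8 fits that left out 1 array. The 1 higher leukocyte marker, C1qa, was lost with array medians equalised, quantile normalization and trend and robust variances, and in 7 of those 8 fits. The planned use of each gene's probe set second in brightness was not run, as each of the 30 genes had 1. No paired analysis was possible because the labels give no replicate numbers.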
